A study of Homo sapiens with 12 samples.

Results

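RNAseq of SKBR-3 cells was used to ask which mRNAs depended on the transcription factor FOXA1 while HER2 was inhibited. Of the 12 libraries of the study, the 6 treated with lapatinib were compared, 3 with a FOXA1 siRNA pool and 3 with a non-targeting (NT) siRNA pool, over all genes. SKBR-3 is an established HER2+ human breast carcinoma line without estrogen or progesterone receptor, so every library carries the same ERBB2 (HER2) amplification. In the labels the siRNA was given for 48 h and 300 nM lapatinib, a reversible inhibitor of the HER2 and EGFR tyrosine kinases, for the following 24 h. The other 6 libraries received the same siRNA pools and then DMSO, the vehicle of the drug, for 24 h, and were used here for reference only. A second, independent siRNA or a rescue was not analyzed here, and the replicates are libraries of a single cell line for which the labels do not state separate cultures. The p-values therefore measure only the spread between these libraries, which may be technical.

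FOXA1 is a forkhead pioneer factor: it binds its motif on closed chromatin and opens it to other transcription factors. In the mammary gland it belongs to the luminal program, together with GATA3 and, in receptor-positive cells, the estrogen receptor. HER2 itself has no known ligand and signals mainly as a heterodimer with HER3 (ERBB3), the partner that recruits phosphatidylinositol 3-kinase. When the HER2 kinase is blocked, cells commonly raise the transcription of HER3 and of other receptors, which is known as an adaptive response.

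The libraries held between 25749578 and 32271850 expected counts, which are estimated numbers of reads per gene. All gene values given here are normalized counts, obtained by scaling each library with its TMM factor to the mean depth over all 12. In every group the library numbered 2 stood apart from the other pair. Within groups the chi-square per degree of freedom over genes was 12.7 to 18.5 for pairs that held library 2 and 3.75 to 5.94 for libraries 1 and 3, so no library was a repeat deposit of another. Luminal epithelial markers summed to between 796327 and 837616 counts with the NT pool and lapatinib and to between 624141 and 658093 with the FOXA1 pool. ERBB2 was the largest part of these sums, and FOXA1, the target of the pool, is a member. EPCAM and KRT7 changed little, at log2 fold changes of 0.08 and -0.09 (edgeR adjusted p = 0.14 and 0.0627), and the other members had lower means. Of the receptors, ESR1 stood at 27.3, 31.8 and 43.1 counts with the NT pool and at 41.3, 40.4 and 36.8 with the FOXA1 pool, and PGR was at or near 0. Leukocyte markers summed to 839 to 1145 and 935 to 1275 counts, nearly all of them CD68, with PTPRC at or near 0, and fibroblast markers to 273 to 380 and 327 to 390, nearly all COL1A1, with LUM at 0. Endothelial markers summed to 303 to 432 counts with the NT pool and 512 to 758 with the FOXA1 pool. Most of them were CDH5, which was called higher (1.08). PECAM1 and TEK were at or near 0, and VWF and KDR stood at -0.27 and -0.57 (edgeR adjusted p = 0.441 and 0.269). The part of these markers in the results was not tested. In such bulk samples fewer cells of a kind and less RNA per cell cannot be told apart.

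FOXA1 (Entrez 3169, chr14:37589552-37595249 on GRCh38.p14) was measured first, since it is the target of the pool. Its counts were 12672, 12168 and 13177 with the NT pool and lapatinib and 1642, 1888 and 2384 with the FOXA1 pool and lapatinib. All knockdown libraries lay far below all control libraries, at a log2 fold change of -2.69 ± 0.12 (SE), n = 3 per group, edgeR adjusted p = 6.10e-06. In DMSO its counts were 8446, 8308 and 8767 with the NT pool against 1160.1, 1362 and 1564 with the FOXA1 pool, a log2 fold change of -2.63 (edgeR adjusted p = 4.55e-06). The interaction of siRNA and drug was -0.04 with an edgeR adjusted p of 0.928, so a difference in the depth of knockdown between the drug conditions was not detected. FOXA1 mRNA remained measurable in every knockdown library. On the length-corrected TPM scale FOXA1 was the highest of 27 forkhead genes in the NT pool with lapatinib, at a mean of 261, followed by FOXN3 at 63.7 and FOXJ3 at 61.1. In the FOXA1 pool it stood at 41.1, below FOXK2 at 59.7 and FOXN3 at 58.7.

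Of 13727 genes tested in lapatinib, 535 (3.9%) fell and 619 (4.51%) rose with FOXA1 siRNA, or 8.41% in either direction. Such genes, named "called" here, passed an adjusted p of 0.05 and a minimum absolute log2 change of 1. With no minimum on the fold 3048 genes (22.2%) fell and 3121 (22.7%) rose, 44.9% in all. The median log2 fold change over all tested genes was -0.01. These shares and this median are the background for every list count given here. The 3 knockdown libraries lay wholly below the 3 control libraries for 27% of all tested genes and wholly above for 28.4%. Among the called genes the groups did not overlap for 532 of 535 that fell and 614 of 619 that rose. Since the calls were made on these same libraries, this separation follows largely from the choice. The median size of the called changes was -1.40 among the genes that fell and 1.48 among those that rose. A log2 change of at least 3 in size was reached by 37 that fell and 44 that rose. Without both libraries numbered 2, the counts were 556 lower and 678 higher. Low counts were frequent, since 250 of the genes that fell and 321 of those that rose had a mean under 100 counts.

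**Figure D1:**
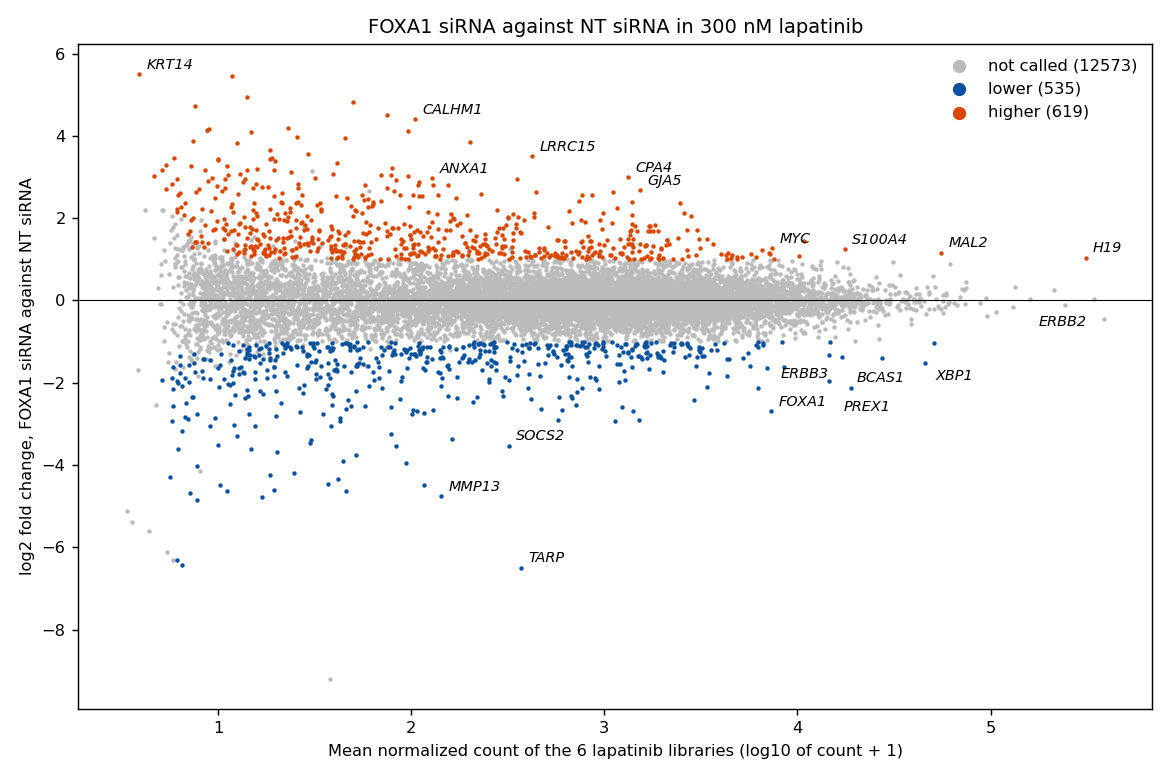
Log2 fold change of FOXA1 siRNA against NT siRNA in lapatinib (y axis) against the mean normalized count of the 6 libraries (x axis, log10 of count + 1), 1 point per tested gene. Blue points are the 535 genes that fell and orange points the 619 that rose. ERBB2 and H19 have the highest counts of the labelled genes, and H19 lies just above 1.

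Among mRNAs of high counts that fell were transcription factors of luminal cells and HER3. XBP1 (Entrez 7494, chr22:28794560-28800569), a factor of the unfolded protein response and of secretory cells, had 69176, 59076 and 75807 counts with the NT pool and 21727, 22092 and 27219.5 with the FOXA1 pool. Every knockdown library was below every control library, and the log2 fold change was -1.53 ± 0.11 (SE) (edgeR adjusted p = 3.10e-05). Of 25 tested luminal transcription factors, 6 were called lower and 1 higher, beside backgrounds of 3.9% and 4.51%, and 15 fell at any fold. Their median log2 fold change was -0.37. FOXA1 itself is a member of that list, and the pool targets it directly. Others called lower were TOX3 at -1.60, XBP1, the grainyhead factor GRHL3 at -1.48 and the epithelial ETS factor EHF, which had 3520.3, 4196 and 3778 counts against 1522, 1904 and 1771 (-1.15). MYB, ZNF217 and SPDEF passed the test below the fold limit, at -0.98, -0.52 and -0.49. GATA3 counts were 5245, 4339 and 5558 with the NT pool and 2844, 2690.0 and 3165 with the FOXA1 pool, a log2 fold change of -0.81 ± 0.10 (SE) (edgeR adjusted p = 0.000382). Not all luminal factors followed. ELF3 had 29257, 32132 and 30269.6 counts against 29468, 29996 and 29491, which overlapped, at a log2 fold change of -0.05 (edgeR adjusted p = 0.375). GRHL2 was at -0.26 (edgeR adjusted p = 0.0516, and 0.000348 in the blocked fit, in which libraries of the same number are paired), and TFAP2B, an AP-2 factor, was called higher at 1.31.

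**Figure D2:**
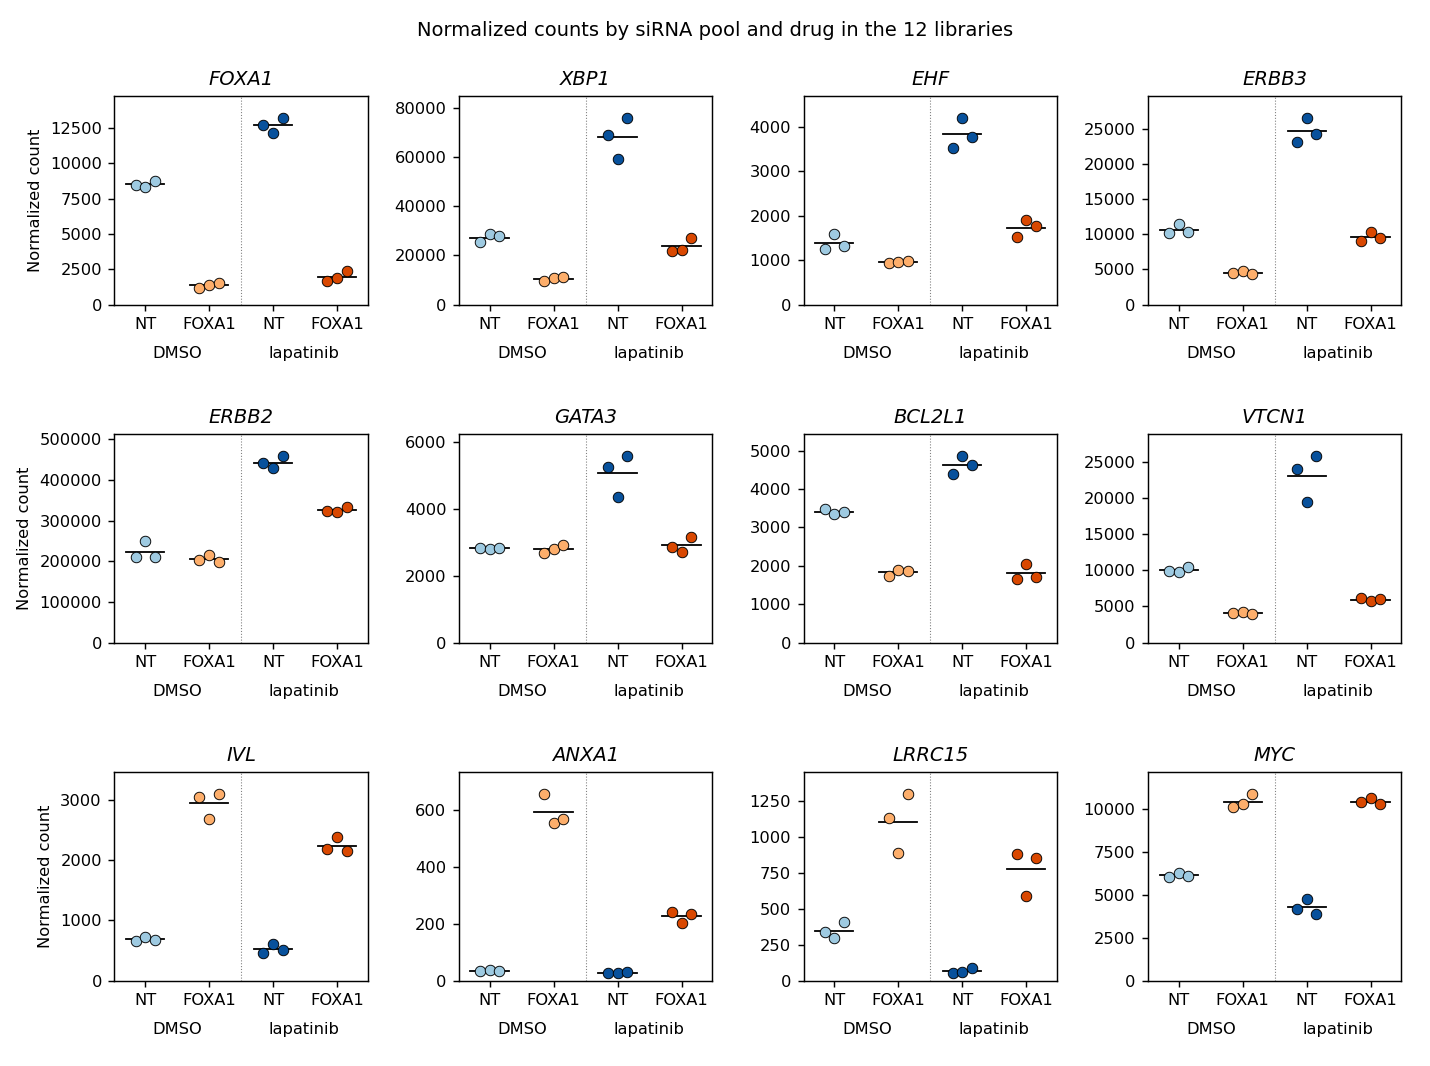
Normalized counts (y axis, from 0) of 12 genes in the 12 libraries, by siRNA pool and drug (x axis), with points for libraries and bars for the mean of 3. In lapatinib (darker points) the NT and FOXA1 libraries of all 12 genes are apart, lower with the FOXA1 pool for the first 8 genes and higher for IVL, ANXA1, LRRC15 and MYC.

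The ERBB receptors did not move alike. ERBB3 (Entrez 2065, chr12:56080108-56103505) had 23117, 26463 and 24188 counts with the NT pool and lapatinib and 9001, 10332 and 9474 with the FOXA1 pool and lapatinib, against 10177, 11439.9 and 10251 with the NT pool in DMSO. The knockdown libraries in lapatinib thus lay near the level of control cells that had received no drug, a comparison of values that was not tested here. With the FOXA1 pool in DMSO the counts were 4505, 4747 and 4387, so ERBB3 was higher in lapatinib than in DMSO with either pool. The interaction of siRNA and drug was -0.13 and did not pass (edgeR adjusted p = 0.466). The log2 fold change in lapatinib was -1.36 ± 0.07 (SE) (edgeR adjusted p = 7.29e-06). ERBB2 (Entrez 2064, chr17:39688094-39728658), the amplified receptor, had 442704, 428653 and 458418 counts against 324585, 322236 and 334460. It fell without overlap at -0.45 ± 0.04 (SE) (edgeR adjusted p = 6.58e-05), short of the fold limit. EGFR had 8707, 7929 and 7392 counts against 12169, 10020.1 and 10223 and rose by 0.42 (edgeR adjusted p = 0.00561). Both ERBB ligands that were called higher had low counts: HBEGF, a ligand of EGFR and ERBB4, at 13.1, 10.9 and 19.5 counts against 27.9, 43.2 and 38.9 (1.32), and EPGN, a further EGFR ligand, at 5.94, 3.98 and 7.18 against 30.0, 42.3 and 33.8 (2.61). In all, 1 of 10 tested ERBB receptors and ligands was called lower and 2 higher, with a median of 0.11.

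Among the neighbors of ERBB2 on its amplicon, 16 genes were tested with ERBB2 included, none was called lower and 1 was called higher, with a median of 0.03. Besides ERBB2, the adaptor GRB7 and ORMDL3 fell below the fold limit, at -0.45 and -0.60. PPP1R1B, which encodes a phosphatase inhibitor, rose from 857, 1192 and 853 to 4095, 4575 and 4019.5 counts (2.12). Other tyrosine kinases that have been tied to adaptive responses gave 1 lower and 1 higher of 23, with a median of 0.16. FGFR4 fell at -1.11 (edgeR adjusted p = 0.014), with its number 2 library lowest in both groups, and without NT library 3 it stood at -0.90 with an edgeR adjusted p of 0.0517. The blocked fit gave FGFR4 an edgeR adjusted p of 2.91e-08. The insulin-like growth factor receptor IGF1R and the kinase FRK fell below the fold limit at -0.62 and -0.81, while MET and PTK6 rose below it at 0.49 and 0.45. LYN, a Src family kinase, rose at 2.05 from under 10 to under 30 counts.

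Luminal and apocrine secretory products split. Of 18 tested, 8 were called lower and 4 higher, with a median of -0.48. The prolactin-induced protein PIP had 193, 219.7 and 256 counts with the NT pool and 30.0, 45.2 and 30.7 with the FOXA1 pool. This was a log2 fold change of -2.66 ± 0.20 (SE) (edgeR adjusted p = 3.10e-05). AGR2, a disulfide isomerase of secretory epithelium, had 4358, 3703 and 5304 counts against 1316, 1394 and 1724 (-1.60). CEACAM6, an adhesion molecule, had 1875, 2529.7 and 2411 against 669.5, 1062 and 809.6 (-1.43). CEACAM5, the trefoil factors TFF1 and TFF3, APOD and the glucuronosyltransferase UGT2B11 were the others called lower, from -3.47 for UGT2B11 to -1.02 for APOD. UGT2B11 and CEACAM5 have close paralogs that can share reads. Neither met both limits used below for the largest falls, a mean of at least 100 counts and no overlap between the groups. The mammaglobins moved the other way: SCGB2A2 had 1603, 2193 and 1636 counts against 4069, 4746 and 4448 (1.28), and SCGB1D2 rose at 1.72. Lipocalin LCN2 rose at 1.78 and GGT1 at 1.13.

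Genes of the secretory pathway around XBP1 were called lower in 4 cases of 31 and higher in none, beside 3.9% and 4.51% of all genes tested. At any fold 14 fell and 3 rose, beside 22.2% and 22.7%, with a median of -0.17. Besides XBP1, these were SSR1, a subunit of the translocon-associated complex, with 3941, 3479.9 and 3682 counts against 1710.0, 1626 and 1818 (-1.11), the secretory factor CREB3L1 (-1.18) and KDELR3 (-1.17). KDELR3 rested on under 40 counts, and its edgeR adjusted p of 0.016 became 0.0521 with all 12 samples in the fit, 0.0533 without FOXA1 library 1 and 0.0607 without FOXA1 library 3. The chaperone HSPA5 and the stress-induced MANF rose below the fold limit, at 0.38 and 0.69, whereas DNAJB9 fell at -0.47.

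Immune checkpoint ligands and BCL2 family genes moved in both directions. VTCN1 encodes B7-H4, a ligand that restrains T cells. Its counts were 23946, 19378 and 25724 with the NT pool and 6171, 5707 and 5989.9 with the FOXA1 pool, a log2 fold change of -1.96 ± 0.10 (SE) (edgeR adjusted p = 7.63e-06). Of 10 tested immune checkpoint ligands 1 was lower and 1, LGALS9, higher, with a median of -0.25 (1.08 for LGALS9, edgeR adjusted p = 0.0265). The LGALS9 change no longer passed without NT library 1, NT library 3 or FOXA1 library 2, at edgeR adjusted p of 0.0858, 0.0868 and 0.0826. It passed in the blocked fit (edgeR adjusted p = 1.64e-05). BCL2L1, which encodes the anti-apoptotic BCL-xL, had 4387, 4849 and 4626 counts against 1666, 2049 and 1706 (-1.36 ± 0.08 (SE), edgeR adjusted p = 1.33e-05). Of 14 tested BCL2 family genes, 2 were called lower and 2 higher, with a median of -0.01. The pro-apoptotic BMF also fell (-1.34), while the pro-apoptotic PMAIP1 (NOXA) rose at 1.09 and BCL2 rose at 1.98, both from low counts. MCL1 had 13406, 13524 and 12606 counts against 13028, 13600.1 and 12667 and a log2 fold change of -0.02.

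TGF-beta and BMP pathway genes were called lower in 3 cases and higher in 1 of 30 tested, and 14 fell and 6 rose at any fold, with a median of -0.10. BAMBI, a pseudoreceptor that blocks TGF-beta signaling, had 2504, 2116 and 2589 counts against 893, 808 and 1067 (-1.39). BMP4, a ligand, fell at -1.79 and SMAD9 at -1.88, from low counts, and SMAD9 did not pass without NT library 1 or FOXA1 library 2 (edgeR adjusted p = 0.0683 and 0.051) or with DESeq2 (0.0568). The receptor TGFBR1, the ligand subunit INHBB and SMAD3 fell below the fold limit, at -0.74, -0.80 and -0.71. ID2, ID3 and ID4, which are induced by BMP signals, rose at 0.80, 0.83 and 1.20.

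Genes of basal and squamous epithelium had the highest median of the 25 lists. Of 21 tested, none was called lower and 8 were called higher, beside 3.9% and 4.51% of all genes, with a median log2 fold change of 0.95 beside -0.01. At any fold 11 rose and 2 fell, beside 22.7% and 22.2%, and 8 did not pass. In the blocked fit 10 were called higher. Involucrin (IVL), a protein of the cornified envelope, had 466, 614 and 513 counts with the NT pool and 2178, 2388 and 2146 with the FOXA1 pool. The groups were far apart, at 2.07 ± 0.10 (SE) (edgeR adjusted p = 7.04e-06). Keratin 15 had 562, 595 and 625 counts against 2378, 1763 and 2366 (1.86). Keratin 5, a defining basal keratin, had 1.19, 3.98 and 3.08 against 37.2, 27.9 and 31.7 (3.45). Keratin 14, its partner, was at 0 in all NT libraries and at 10.3, 0.961 and 6.14 in the FOXA1 libraries. The KRT14 call (edgeR adjusted p = 0.0411) was lost without any 1 NT library or without FOXA1 library 3, at edgeR adjusted p of 0.0616 to 0.0949. KRT16 (2.53) and KRT13 (1.91) rose from under 35 counts, and KRT14 and KRT16 have near-identical copies on chromosome 17 that can share reads. SFN (14-3-3 sigma) and S100A2 rose at 1.08 and 1.03. TRIM29 (0.95), LAMB3 (0.64) and EGFR rose below the fold limit. The keratin KRT4 fell, with 16816, 12779.6 and 15915 counts against 10465, 9329 and 10177 (-0.61). The basal and myoepithelial markers of the sample check, which include KRT5, summed to 145 to 218 counts with the NT pool and 187 to 232 with the FOXA1 pool, most of it from ACTA2, MYH11 and OXTR. TP63, also a marker there, had 1.19, 2.98 and 3.08 counts against 4.13, 1.92 and 1.02 and was too low to be tested.

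Luminal keratins and epithelial adhesion genes gave 1 lower and 2 higher of 30, with a median of 0.05. KRT8 had 113131, 104327 and 105403 counts against 84479, 80447 and 84668 (-0.38), KRT18 stood at -0.14 and KRT19 at -0.27, both just past the test. KRT18 missed it without NT library 1 or 2 or FOXA1 library 1 or 3, and KRT19 without NT library 1 or 3 or FOXA1 library 1 or 2 (edgeR adjusted p up to 0.143 and 0.105). Both passed in the blocked fit (edgeR adjusted p = 0.00116 and 1.27e-05). KRT23 and the splicing factor ESRP1 rose at 1.69 and 1.05. CDH1 (E-cadherin) was under 20 counts in every library of the comparison, at -1.56 with an edgeR adjusted p of 0.0224, which was 0.0721 with DESeq2 and 0.0532 to 0.0779 without NT library 2 or 3 or FOXA1 library 2 or 3. Of 14 tested mesenchymal genes, fibronectin FN1 fell from 8751, 9890.1 and 6817 to 3033, 2963 and 2446 counts (-1.60), and the adhesion receptor CD44 (1.44) and the collagen cross-linker LOXL2 (1.61) rose. The list thus gave 1 lower and 2 higher, with a median of 0.02.

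Annexins and S100 calcium-binding proteins rose in 8 of 24 tested cases and none was called lower, with a median of 0.16. Annexin A1, an anti-inflammatory phospholipid-binding protein, had 27.3, 26.8 and 31.8 counts with the NT pool and 241, 204 and 235 with the FOXA1 pool (2.97 ± 0.15 (SE), edgeR adjusted p = 7.60e-06). S100A4, which is linked to cell motility, had the highest counts of those that rose, with 9606, 10171 and 11568 counts against 24087, 25030.1 and 25336 (1.24). S100A9 and S100A8, the subunits of calprotectin, rose at 1.10 and 1.32. S100A3 (2.55), S100A7 (1.71) and S100A2 were further members, and ANXA8 (2.80) has near-identical copies that leave its value uncertain. ANXA2 fell below the fold limit at -0.58.

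MYC, the proto-oncogene that drives growth and metabolism, rose. Its counts were 4216, 4787 and 3913 with the NT pool and 10419, 10652 and 10314 with the FOXA1 pool, a log2 fold change of 1.27 ± 0.07 (SE) (edgeR adjusted p = 9.94e-06). Of 19 tested AP-1 and immediate early genes none was called lower and 4 were called higher, with a median of 0.19. EGR2 and EGR3 rose at 1.86 and 2.15 from under 6 to under 25 counts. CTGF (CCN2) rose at 1.27 with an edgeR adjusted p of 0.0391, but its groups overlapped, its number 2 library was highest in both groups, and DESeq2 gave 0.0575. The blocked fit gave CTGF a log2 fold change of 1.29 (edgeR adjusted p = 4.29e-08). Without NT library 1 or 3 or FOXA1 library 2 or 3 its edgeR adjusted p was 0.0519 to 0.122, and without FOXA1 library 2 its log2 fold change was 0.77. EGR3 did not pass with DESeq2 (0.0893) or without NT library 2 or 3 or FOXA1 library 1 or 3 (edgeR adjusted p up to 0.0893). Of the AP-1 subunits, FOSL2 rose below the fold limit at 0.49, and JUN stood at 0.34 with an edgeR adjusted p of 0.106, which was 0.000184 in the blocked fit. Feedback genes of the ERK pathway gave 1 lower and 3 higher of 15, with a median of -0.01. Sprouty 2 (SPRY2) had 13.1, 32.8 and 10.3 counts against 71.3, 107 and 58.3 (2.04), PHLDA1 rose at 1.63 (edgeR adjusted p = 0.0594 and 0.0552 without NT library 1 or 3, and a log2 fold change of 0.9999, just under the limit, without FOXA1 library 2) and ETV1 at 1.23 (0.0766 with DESeq2), while the phosphatase DUSP4 fell below the fold limit at -0.87.

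Cell cycle genes were mostly not called. Of 42, 3 were lower and 1 higher, with a median of 0.12. At any fold 7 fell and 6 rose, beside 22.2% and 22.7% of all genes tested. Cyclin D1 (CCND1) had 2241, 2674 and 1784 counts against 722, 1232 and 625 (-1.38, edgeR adjusted p = 0.00258). The replication genes MCM6 and TYMS fell at -1.60 and -1.30, and PCNA and the cyclin CCNA2 fell below the fold limit at -0.79 and -0.84. The mitotic kinase CDK1 rose, from 883, 1349.8 and 983 to 2039.6, 2685 and 2066 counts (1.07, edgeR adjusted p = 0.00119). PLK1, TOP2A, UBE2C and NUSAP1 rose below the fold limit, at 0.97, 0.81, 0.90 and 0.88. The number 2 library was the highest for all 4 in each group, and without both number 2 libraries 4 cell cycle genes were called higher instead of 1. In the blocked fit PLK1 was called higher, at 1.0007, and TOP2A stood at 0.84 (edgeR adjusted p = 8.56e-07 and 4.28e-07). DESeq2 gave TOP2A an adjusted p of 0.0534. Without NT library 1 or 3 or FOXA1 library 2 the edgeR adjusted p rose to at most 0.0868 for PLK1 and 0.0939 for TOP2A, which also missed without FOXA1 library 1 (0.0542), and without NT library 3 to 0.0595 for NUSAP1.

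The remaining lists moved less or in mixed directions. Of 18 other forkhead genes, FOXP4 fell from 2786, 3334 and 2872 to 988, 1277 and 1027 counts (-1.46) and FOXI1 rose from at most 2.05 to at most 9.61 counts, with a median of -0.24. FOXI1 did not pass with DESeq2 (0.0612) or without NT library 1 or 2 (edgeR adjusted p = 0.0693 and 0.0611). FOXO1, FOXP1 and FOXO4 fell below the fold limit, at -0.58, -0.78 and -0.86, and FOXO3 at -0.21. Of 23 FOXO target genes, PDK4, an inhibitor of pyruvate dehydrogenase, was the single call (1.58), and CCNG2 (-0.95) and BCL2L11 (-0.53) fell below the limit, with a median of -0.03. Interferon-stimulated genes gave 2 lower and 6 higher of 37, with a median of 0.33. OAS2 and ISG20 fell (-1.60 and -1.44), and MX2, OASL, IFIT2 and GBP1 rose from low counts at 2.13, 1.55, 1.41 and 1.21. Without both number 2 libraries this list gave 3 lower and 4 higher. OASL missed the threshold without FOXA1 library 2 and IFIT2 without that library or NT library 3 (edgeR adjusted p up to 0.0667). MHC class I genes gave no call among 14 (median 0.11), with HLA-B at -0.52 and B2M at 0.42. NF-kB targets gave 3 higher and none lower of 18 (median 0.15), led by SAA1 at 2.53 from under 6 to under 33 counts.

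Lipid metabolism genes gave 1 lower and 3 higher of 25, with a median of 0.24. The acyl-CoA synthetase ACSL5 had 876, 1222 and 960.3 counts with the NT pool and 2386, 2876 and 2434 with the FOXA1 pool (1.32). ACSL4, of the same family, rose at 2.21, FABP5 rose at 1.27, and the carnitine transferase CPT1A fell below the fold limit at -0.77. FASN, the fatty acid synthase, stood at 0.24 with an edgeR adjusted p of 0.0287. FABP5 missed the threshold with DESeq2 (0.0595) and without NT library 2 or 3 or FOXA1 library 1 or 2, and FASN without NT library 2 or 3 or FOXA1 library 1 or 3 (edgeR adjusted p up to 0.119 and 0.103). Both passed in the blocked fit (edgeR adjusted p = 0.00885 and 6.74e-06). None of 24 cholesterol synthesis genes was called (median 0.06), with HMGCS1 at 0.53, and none of 28 ribosomal protein genes (median -0.04), with RPLP0 at -0.19. Of 20 estrogen and androgen response genes, TFF1 fell (-1.04) and the metalloreductase STEAP4 rose from 359, 638 and 333 to 2119, 2628 and 2289.7 counts (2.39), with a median of -0.02. The 25 genes that the study itself names for these cells gave 7 lower and 1 higher, with a median of -0.49. That list was in part chosen on these samples and is not independent evidence of its direction.

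**Figure D3:**
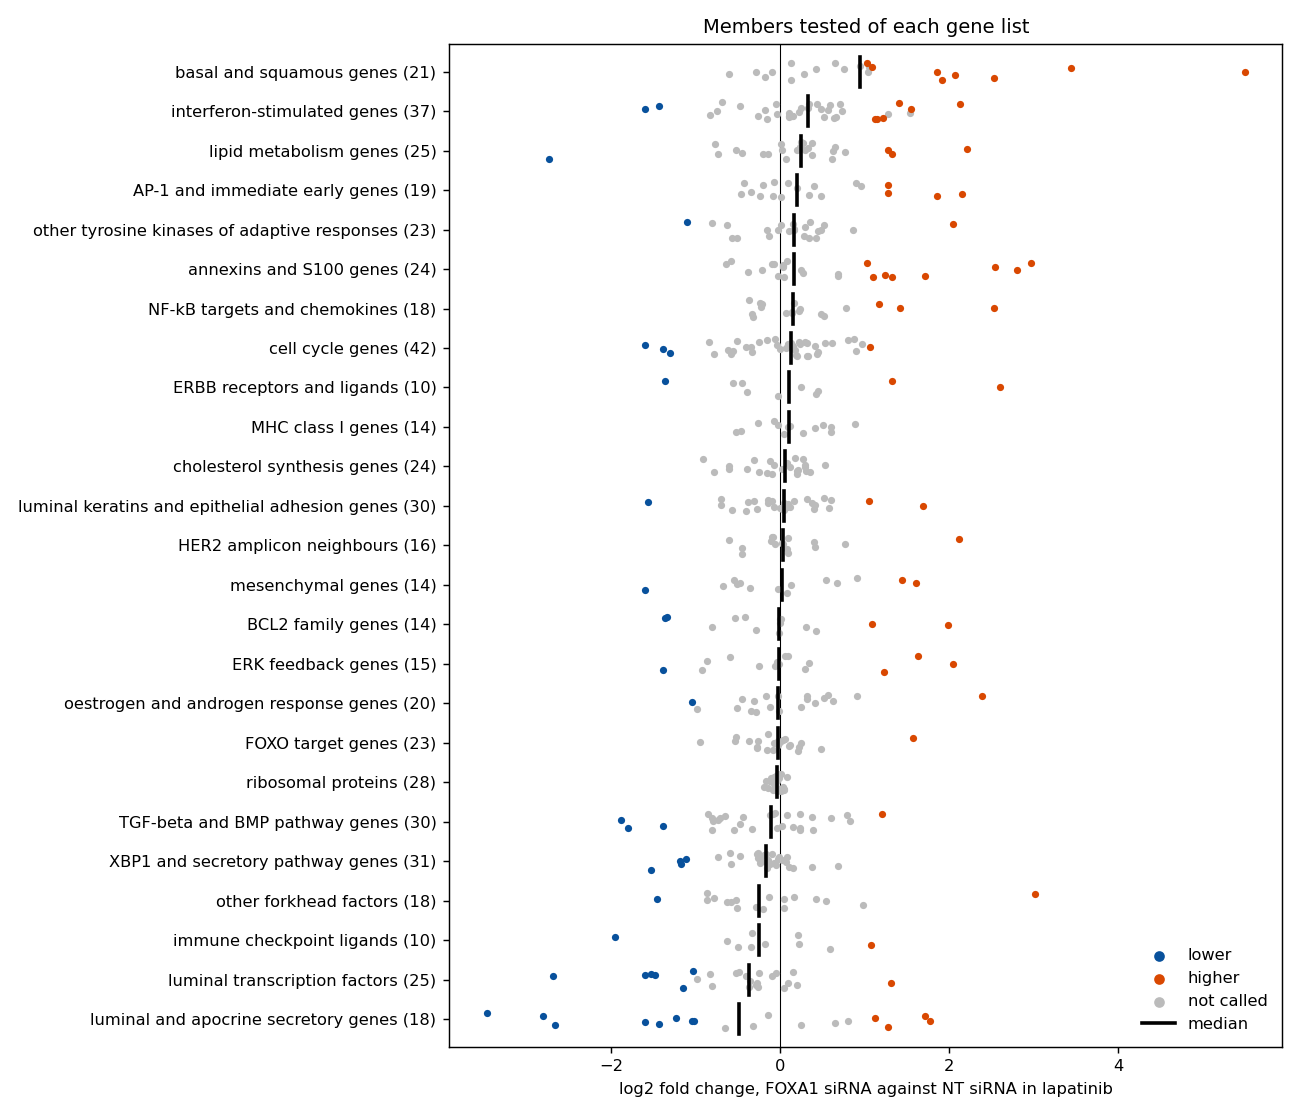
Log2 fold change in lapatinib (x axis) of the tested members of 25 gene lists, with the number tested in parentheses and a black bar at the median. Basal and squamous genes have the highest median at 0.95 and luminal and apocrine secretory genes the lowest at -0.48.

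By size alone, other genes led. The largest fall among genes with a mean of at least 100 counts was that of TARP, from 831, 529 and 840.3 to 6.20, 10.6 and 7.16 counts (-6.50 ± 0.29 (SE), edgeR adjusted p = 5.59e-06). TARP is read from the T cell receptor gamma locus and overlaps genes of that locus, so its reads could also be assigned to them. The collagenase MMP13 had 263, 296 and 261 counts against 11.4, 9.61 and 9.21 (-4.75). SOCS2, a suppressor of cytokine signaling, had 605, 464 and 694 against 52.7, 47.1 and 53.2 (-3.53). PRKAR2B, a regulatory subunit of protein kinase A, had 271, 100.4 and 294 against 15.5, 2.88 and 11.3 (-4.50), with library 2 lowest in both groups. SIGLEC6, B3GNT7, PRR15, ATP8B2, RND1, FOXA1 and C20orf114 (BPIFB1) were also among the 12 largest falls above that mean, from -3.37 for SIGLEC6 to -2.68 for C20orf114. XBP1, BCAS1, PREX1, ERBB3 and GOLM1 were among the genes of highest mean count that were called lower. Of these PREX1, an exchange factor that activates Rac, had 35553, 26759 and 30134 counts against 7370.2, 6524 and 7478 (-2.12). BCAS1, a gene named for its amplification in breast carcinoma, had 38309.7, 38516 and 41941 against 14372, 14830.3 and 15996 (-1.40).

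Among genes that rose and had a mean of at least 100 counts, CALHM1, a calcium-permeable channel, led with 9.51, 8.95 and 9.23 counts against 188, 229 and 177 (4.40 ± 0.20 (SE), edgeR adjusted p = 5.59e-06). LRRC15 (Entrez 131578, chr3:194355249-194369743), a membrane protein with leucine-rich repeats, had 54.7, 57.7 and 90.3 counts against 884, 591 and 854 (3.51). CPA4 (Entrez 51200, chr7:130293161-130324180), a carboxypeptidase, had 275, 234 and 372 against 2581, 2000.0 and 2480.1 (2.99). The gap junction protein GJA5 had 439.9, 509 and 285 against 3135, 2805 and 2006 (2.68), and the netrin receptor UNC5B 310.3, 309 and 289 against 2152, 1450.2 and 2119 (2.65). KRT9, ANXA1, ENDOU, FAM25B, CSPG4, ANXA8 and ACOT11 were the others of the 12 largest rises above that mean, from 3.85 for KRT9 to 2.80 for ACOT11, and FAM25B has close copies that can share its reads. The highest counts among genes called higher were those of the imprinted noncoding RNA H19, MAL2, S100A4, ACADM, BACE2 and BZW2. H19 had 219725, 188469 and 199332 counts against 433878, 431971 and 392311 (1.04), and ACADM, a dehydrogenase of medium-chain fatty acids, had 5398, 6264 and 5773 against 15747, 15506 and 16306 (1.44).

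The same siRNA comparison in DMSO, which shares no library with that in lapatinib, called 380 of 13694 genes lower (2.77%) and 556 higher (4.06%), 6.84% in all. Among 13409 genes tested in both, 241 were called lower in both, which is 48.7% of the 495 called lower in lapatinib and 68.1% of the 354 called lower in DMSO. Called higher in both were 360, or 61.3% of 587 and 67.2% of 536. With the fold limit applied in both, 1 gene was lower in lapatinib and higher in DMSO, and 1 the reverse. With no minimum on the fold, 38 genes were lower in lapatinib and higher in DMSO, and 43 the reverse. By that rule 1898 were lower in both and 2071 higher in both. XBP1, ERBB3, IVL, CPA4 and PREX1 were called in both, at log2 fold changes in DMSO of -1.36, -1.21, 2.11, 3.06 and -2.10.

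The interaction of siRNA and drug, fitted on all 12 libraries, asks whether the siRNA effect differed between lapatinib and DMSO. At an adjusted p under 0.05, 449 of 14012 genes (3.2%) had a more negative siRNA effect in lapatinib and 559 (3.99%) a more positive one, 7.19% in all. Of the 535 genes called lower in lapatinib, 92 had a more negative effect there and 3 a more positive one, and of the 619 called higher, 69 a more positive and 6 a more negative one. Choosing genes by their change in lapatinib favors these directions, so nothing is read from them. The blocked fit, which pairs libraries of the same number, gave 1292 and 1561. Leaving out single libraries gave 242 to 583 and 300 to 782, with the lower values when a library numbered 1 or 3 was left out.

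GATA3 was among these genes. Its counts in DMSO were 2828, 2794 and 2832 with the NT pool against 2689, 2792 and 2908 with the FOXA1 pool and overlapped, at a log2 fold change of 0.00, while in lapatinib it stood at -0.81. The interaction was -0.79 ± 0.12 (SE) (edgeR adjusted p = 0.00269). In DMSO PIP stood at -0.71 and CEACAM6 at -0.07, with interactions of -1.93 and -1.34 (edgeR adjusted p = 0.0148 and 0.0152). VTCN1, BCL2L1, EHF and SOCS2 also had negative interactions, at -0.66, -0.46, -0.62 and -1.40. The ERBB2 interaction of -0.31 (edgeR adjusted p = 0.0424) did not pass when any of 10 libraries of the 12 was left out, at an edgeR adjusted p of up to 0.105. For ERBB3 and XBP1 the interactions were -0.13 and -0.15, and neither passed (edgeR adjusted p = 0.466 and 0.628).

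The smallest interaction p among genes called lower in lapatinib was that of C17orf58, with 5306, 5374 and 5799.9 counts against 1218, 1324 and 1335 in lapatinib and 1742, 1787 and 1977 against 1020.2, 985 and 1029 in DMSO (-1.23, edgeR adjusted p = 6.65e-05). KIAA0513 fell in lapatinib (-1.22) and rose by 0.24 in DMSO (interaction -1.44, edgeR adjusted p = 0.000245). ARHGAP26, the homeobox gene IRX3 and the interleukin 1 receptor IL1R1 followed, at interactions of -1.15, -0.84 and -1.01. On the other side, LRP8, a lipoprotein receptor, had 905, 798 and 863 counts against 2038, 1839 and 1919 in lapatinib, with an interaction of 0.93 (edgeR adjusted p = 0.000321). HPDL, TMEM97, FAM188B (MINDY4) and the helicase RECQL4 followed, at 1.15, 1.07, 1.11 and 1.25. RECQL4 stood at 153, 213 and 194 counts with the NT pool and 406, 415 and 417 with the FOXA1 pool in lapatinib, and at 1078, 924 and 998 and 972, 923 and 883 in DMSO, where it overlapped between the pools. CDK1 and MYC had positive interactions of 1.50 and 0.52 (edgeR adjusted p = 0.00457 and 0.00457), and their FOXA1 libraries in lapatinib lay above the NT libraries in lapatinib. In DMSO MYC also rose, at 0.78, whereas CDK1 fell, at -0.41 (edgeR adjusted p = 1.42e-05 and 0.0473). Of 42 cell cycle genes, 7 were called lower in DMSO and none higher, beside 2.77% and 4.06% of genes tested there. Their median was -0.45 in DMSO and 0.12 in lapatinib. ANXA1 rose in both, but less in lapatinib, with an interaction of -1.07 (edgeR adjusted p = 0.00673).

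**Figure D4:**
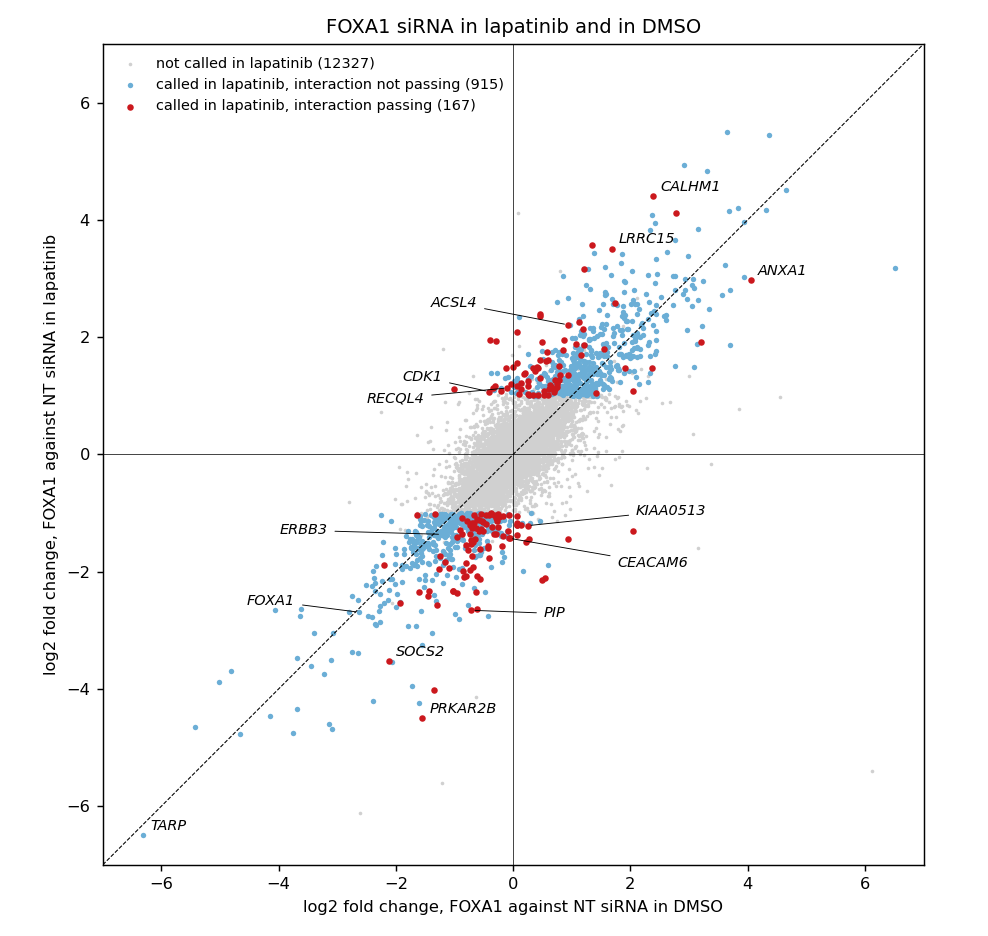
Log2 fold change of FOXA1 against NT siRNA in lapatinib (y axis) and in DMSO (x axis), 1 point per gene tested in both, with the dashed line of equal change. Of 1082 genes called in lapatinib, 167 had a passing interaction (red). Since the colored genes were chosen for their change in lapatinib, their lying farther from 0 on that axis follows in part from the choice.

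The promoters of the called genes were searched for motifs, as a description. Of the letters searched, TGTTTAC and TGTTTGC are forms of the forkhead motif. TGANTCA, with N for any base, is a loose form of the AP-1 motif. The usual middle base is C or G, so the AP-1 matches counted here include other forms. Each was searched on both strands and in the 250 bases before the start that RefSeq gives on GRCh38.p14. These promoters were found for 404 of the 535 genes that fell and 455 of the 619 that rose. A forkhead match lay in 28 (6.93%) of the promoters of genes that fell, 18 (3.96%) of genes that rose and 441 of 10866 (4.06%) of all genes tested. An AP-1 match lay in 14 (3.47%), 57 (12.5%) and 442 (4.07%). Neither motif contains the other. Over all 15445 promoters matched to a listed gene, 4.64% held the forkhead and 5.06% the AP-1 motif. In DMSO a forkhead match lay in 8.1% of genes that fell, 4.98% of genes that rose and 4.0% of genes tested. An AP-1 match lay there in 3.17%, 10.7% and 4.05%. Base composition differed between the groups: the median GC content was 62.4% in promoters of genes that rose, 66.0% in those that fell and 64.8% in all tested. Below 64.8% GC, forkhead matches lay in 9.57% of promoters of genes that fell and 5.76% of those tested. At or above it they lay in 4.63% and 2.4%. Among promoters under 64.8% GC, AP-1 matches lay in 19% of those that rose and 6.34% of those tested, and at or above it in 3.65% and 1.85%. The part of base composition in the pooled shares was not tested further.

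**Figure D5:**
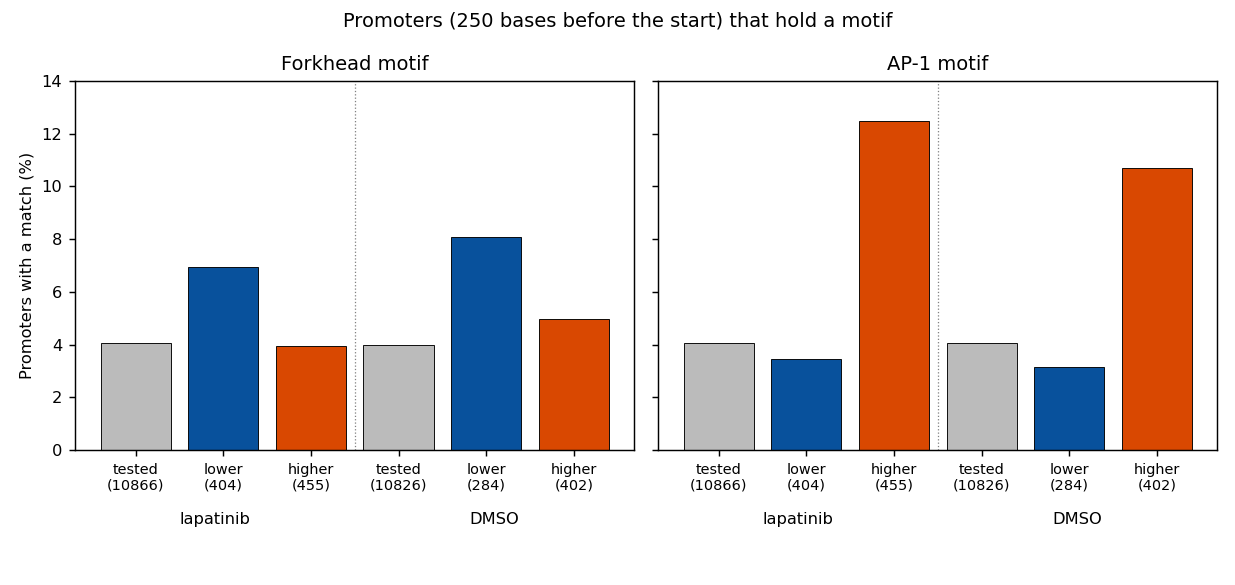
Share of promoters with at least 1 forkhead motif (left) or AP-1 motif (right) (y axis, percent) among all genes tested and those that fell or rose with FOXA1 siRNA, in lapatinib and in DMSO (x axis, number of promoters in parentheses). The AP-1 share is 12.5% for genes that rose in lapatinib and 4.07% for all genes tested there.

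By the rule for showing promoters, FOXA1's own was the only one with a forkhead match among 10 found for 18 candidate genes, and it is shown to place that match at 235 bases before the start. The promoters of BTG1, FRAT1 and C10orf10 (DEPP1), which fell at -1.43, -1.48 and -1.57, show the motif in other genes of the group that fell and were chosen after their values were seen. Capitals mark the match on either strand, and sequences run 5′ to 3′ on the strand of the gene.
FOXA1 (chr14:37595250-37595499, minus strand): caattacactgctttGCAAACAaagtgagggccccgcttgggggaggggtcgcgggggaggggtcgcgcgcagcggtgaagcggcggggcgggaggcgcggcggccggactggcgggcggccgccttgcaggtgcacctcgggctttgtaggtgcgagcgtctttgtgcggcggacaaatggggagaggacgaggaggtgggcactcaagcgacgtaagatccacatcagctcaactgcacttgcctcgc
C10orf10 (chr10:44978810-44979059, minus strand): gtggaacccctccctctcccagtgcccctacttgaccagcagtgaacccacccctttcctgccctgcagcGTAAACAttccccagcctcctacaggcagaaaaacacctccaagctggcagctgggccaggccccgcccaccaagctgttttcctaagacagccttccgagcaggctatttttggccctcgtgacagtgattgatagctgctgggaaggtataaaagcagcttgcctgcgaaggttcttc
FRAT1 (chr10:97319021-97319270, plus strand): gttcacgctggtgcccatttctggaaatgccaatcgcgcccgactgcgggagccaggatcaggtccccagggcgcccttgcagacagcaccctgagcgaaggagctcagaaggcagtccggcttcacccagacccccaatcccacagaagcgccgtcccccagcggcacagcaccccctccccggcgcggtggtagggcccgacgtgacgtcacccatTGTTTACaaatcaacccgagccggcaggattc
BTG1 (chr12:92145847-92146096, minus strand): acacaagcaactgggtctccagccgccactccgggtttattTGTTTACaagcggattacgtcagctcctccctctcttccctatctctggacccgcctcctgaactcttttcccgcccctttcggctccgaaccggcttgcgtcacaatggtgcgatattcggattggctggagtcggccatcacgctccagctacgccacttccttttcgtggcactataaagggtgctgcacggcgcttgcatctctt

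AP-1 matches are shown for LRRC15, CPA4, LMO1 and S100A3, all of which rose by more than 2 on the log2 scale (3.51, 2.99, 2.58 and 2.55). These too were chosen after their values were seen. The LMO1 match, TGATTCA, has T as its middle base and not the usual C or G. CPA4 holds 2 matches, at 48 and 15 bases before the start, and LRRC15 1 match at 48 bases. The match is a description of letters in these windows and not a measured site.
LRRC15 (chr3:194369744-194369993, minus strand): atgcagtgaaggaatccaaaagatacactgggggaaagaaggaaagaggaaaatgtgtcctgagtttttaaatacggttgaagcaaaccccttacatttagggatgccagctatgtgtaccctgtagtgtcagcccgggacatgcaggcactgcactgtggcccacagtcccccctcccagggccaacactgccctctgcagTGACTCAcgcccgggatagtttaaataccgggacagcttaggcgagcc
CPA4 (chr7:130292911-130293160, plus strand): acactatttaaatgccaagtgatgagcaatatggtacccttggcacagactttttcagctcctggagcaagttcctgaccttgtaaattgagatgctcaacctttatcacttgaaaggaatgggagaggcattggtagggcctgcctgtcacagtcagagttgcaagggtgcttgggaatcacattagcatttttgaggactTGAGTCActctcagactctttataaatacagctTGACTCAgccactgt
LMO1 (chr11:8268788-8269037, minus strand): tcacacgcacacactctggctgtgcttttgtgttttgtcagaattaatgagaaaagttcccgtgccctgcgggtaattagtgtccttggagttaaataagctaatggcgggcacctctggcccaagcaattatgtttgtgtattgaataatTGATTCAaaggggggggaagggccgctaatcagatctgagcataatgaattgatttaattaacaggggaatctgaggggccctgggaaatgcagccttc
S100A3 (chr1:153549259-153549508, minus strand): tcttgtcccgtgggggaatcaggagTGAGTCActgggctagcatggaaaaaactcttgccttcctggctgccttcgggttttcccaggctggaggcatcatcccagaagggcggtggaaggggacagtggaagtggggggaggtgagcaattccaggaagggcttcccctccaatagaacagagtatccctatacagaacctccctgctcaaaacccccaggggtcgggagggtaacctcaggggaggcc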

How the data were processed

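RNAseq libraries of SKBR-3 cells were analyzed, 3 per group. Reads were aligned by the authors to hg38 with STAR and quantified with Salmon according to the methods, whereas the deposited columns are those of RSEM, which the submitters' processing notes also name beside DESeq2 1.12.3 and R 3.2.2. The authors deposited for each library and 20531 genes an expected count, an estimated read number that need not be whole, and TPM, a length-corrected level. Labels give both a stranded KAPA and a TruSeq kit, and the strand setting of the counting is not given in the sources used here, so antisense and overlapping genes are uncertain. The methods give 24 h of siRNA before drug, the labels 48 h. Replicates were not pooled.

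Expected counts were rounded, and 29 unnamed rows (0.031% to 0.046% of counts) were kept under their gene ID. A gene was tested when any compared library held 10 or more counts for it, in R 4.3.3 with edgeR 4.0.16 (TMM normalization, glmQLFit and glmQLFTest, Benjamini-Hochberg adjusted p under 0.05, absolute log2 change no smaller than 1), fitted on the 6 libraries of the comparison. The interaction used 12 libraries and no fold minimum. TPM was used only to order forkhead genes. Tables and plots were made in Python 3.11.15 with pandas 2.3.3 and matplotlib 3.10.9. The fits were tested on simulated counts drawn independently for each library. No effect of the replicate number was simulated, so that test does not cover the pairing of libraries.

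Deviations from the group means were correlated between libraries of the same number (correlations of 0.267 to 0.696 over 10812 genes, mean 0.427, against -0.199 for different numbers), so a further fit had the replicate number as a block. The pairing comes from the labels' numbers and this check.

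The compared groups, gene lists and named genes were chosen with earlier results of these data known. Named were the list members, the 12 largest called changes per direction among genes without overlap and with a mean of 100 counts or more, up to 6 per direction of highest mean count, and up to 5 per direction of smallest interaction p. Other settings tried were DESeq2 1.42.0, upper quartile and RLE normalization, other filters, all 12 samples in 1 model, no fold minimum, an adjusted p under 0.01, leaving out each library, and, added after seeing the data, leaving out the libraries numbered 2. Of the gene IDs, 99.2% matched RefSeq. A few genes are not reported here.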

Additional observations from a re-analysis of the deposited data

Results flagged for a closer look

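The interaction of siRNA and drug tests the difference between the siRNA effects in lapatinib and in DMSO itself. It came from edgeR's quasi-likelihood fit of all 12 libraries, and 7.19% of all tested genes passed at an adjusted p under 0.05. Only 30 of the named genes were picked for this closer look. Others that passed, such as EPCAM (0.53), UBE2C (1.27), LOXL2 (1.17), MET (0.36) and GOLM1 (-0.45), are not listed. Of the 30 picked, 27 passed. Of these, 10 were named for having the smallest interaction p, so their number is no result. PRKAR2B, SOCS2, CALHM1 and LRRC15 were named for large changes in lapatinib, a choice that favors an interaction of the same sign. A negative value means a lower log2 fold change of FOXA1 siRNA in lapatinib than in DMSO. Among luminal regulators and surface proteins it was -0.62 for EHF, -0.79 for GATA3, -0.31 for ERBB2 and -0.66 for VTCN1. For secreted and adhesion products and survival it was -1.93 for PIP, -1.34 for CEACAM6 and -0.46 for BCL2L1. For signaling subunits it was -2.92 for PRKAR2B and -1.40 for SOCS2, and for ANXA1, which rose in both conditions, -1.07.

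The 5 genes of smallest p that were called lower in lapatinib had interactions of -1.23 for C17orf58, -1.44 for KIAA0513, -1.15 for ARHGAP26, -0.84 for IRX3 and -1.01 for IL1R1. The 5 that were called higher had 0.93 for LRP8, 1.15 for HPDL, 1.07 for TMEM97, 1.11 for FAM188B and 1.25 for RECQL4. Positive interactions were also found for CDK1 at 1.50, MYC at 0.52, KRT15 at 0.68, KRT13 at 1.43, ACSL4 at 1.30, CALHM1 at 2.03 and LRRC15 at 1.84. When single libraries were left out, the interaction no longer passed for 10 of 12 libraries in ERBB2, 9 of 12 in KRT15 and in KRT13, 6 of 12 in CALHM1, 4 of 12 in EHF, and 1 of 12 in BCL2L1 and in ACSL4.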

How the results depend on the processing

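Numbers of genes called in lapatinib, in DMSO and in both stayed within 1.5 times under RLE and upper quartile normalization, DESeq2, other filters, all 12 samples in 1 model, the replicate block and an adjusted p under 0.01, as far as each was run for them. In lapatinib they ranged from 382 to 563 lower and 421 to 647 higher over the scalings, tools, filters and samples in the fit, with the lowest values from requiring 10 counts in every sample. Without a minimum fold change the counts were 3048 lower and 3121 higher in lapatinib, 2910 and 3002 in DMSO, and 1898 and 2071 in both, which follows from the wider rule. Leaving out each library gave 481 to 558 lower and 556 to 685 higher in lapatinib and 330 to 409 and 462 to 676 in DMSO.

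With the replicate number as a block, for which the pairing held in these data, the counts in lapatinib were 571 lower and 657 higher, and in DMSO and lapatinib together 266 and 388. The interaction moved most: 449 lower and 559 higher became 1292 and 1561 with the block and 1092 and 1426 without the 4 libraries numbered 2. DESeq2 gave 630 and 821. Leaving out 1 library gave 242 to 583 lower and 300 to 782 higher. Without a library numbered 1 these were 242 to 289 and 302 to 385, without one numbered 3, 264 to 317 and 300 to 425, and without one numbered 2, 354 to 583 and 448 to 782. The cause was not tested. In lapatinib the block brought GRHL2, TFAP2C, JUN, KRT7 and EPCAM past the test among the named genes and ended no call.

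Of 177 named genes that passed the test in lapatinib, 154 did so in each alternative and each fit without 1 library that gave a value, 22 did not in at least 1 fit that left out a library, 12 did not under another setting, and no direction turned. Of 27 interactions, 20 passed in each fit that gave a value. The filter of 10 counts in every sample gave none for 24 of 185 named genes in lapatinib and 2 of 30 in the interaction, and 3 fits that left out libraries gave none for 1 or 2 genes. Depth limits the low genes: KRT14, EGR3 and FOXI1 lay under 11 counts in all 6 lapatinib libraries.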
